A study of Mus musculus with 20 samples.

Results

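The mRNAs of mouse duodenum that iron regulatory protein 1 (IRP1) pulled down were measured on 4 of the series' 20 arrays, chosen by their titles. In the IRP1 reactions (2 arrays), total RNA of duodenum was mixed with purified recombinant IRP1 made in E. coli and precipitated with a rabbit polyclonal anti-IRP1 antibody. In the control reactions (2 arrays), run in parallel, the recombinant protein was left out. The source is described alike for all 4 arrays, as pooled RNA of C57BL6/J mice. The mice were kept for 21 days from weaning on a diet with less than 10 mg iron per kg. The labels give 4 mice for IRP1 replicate 1 and no number for the other duodenum arrays. The comparison is therefore between reactions in a test tube, where RNA met added protein, and not between animals. The other 16 arrays hold the same reactions on liver and spleen of iron-poor mice, and on bone marrow and brain of iron-replete animals (normal diet, 8 to 10 weeks of age), with 2 arrays a group.

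IRP1 is a cytosolic protein that binds RNA when cells lack iron and serves as an aconitase when an iron-sulfur cluster fills it. It recognises the iron-responsive element (IRE), a hairpin with a CAGUGN loop. An IRE in the 5′ untranslated region lets IRP1 block translation, as in the ferritins, ferroportin and HIF-2 alpha, and IREs in the 3′ untranslated region shield an mRNA from decay, as in the transferrin receptor. Duodenal enterocytes take up dietary iron through the metal transporter Slc11a2 (DMT1) and release it into blood through ferroportin (Slc40a1).

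All values are log2 signals of Affymetrix Mouse430_2 probe sets as the authors deposited them, so a difference of 1 is 2-fold. A change is the mean of the 2 IRP1 arrays minus the mean of the 2 control arrays, given with the standard error of a limma fit over all 20 arrays. A probe set was called when its p-value, adjusted by Benjamini-Hochberg over 45037 probe sets, was under 0.05. All adjusted p below come from that fit. Whether the reactions of one kind came from separate RNA pools is not stated. The p-values therefore reflect only how far arrays of the same group differ from each other, which may be technical. That spread, also behind the standard errors, was estimated for each probe set over the 10 groups of all 5 tissues. It does not come from the duodenum arrays alone.

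The tissue matched its label. The 10 enterocyte markers averaged a log2 signal of 11.08 and 11.24 on the IRP1 arrays and 11.23 and 11.26 on the controls, against 7.67 or less in the groups of the other tissues. Paneth and goblet cell markers were also high, and 5 erythroid markers averaged between 4.79 and 4.96. Pancreatic acinar markers were abundant too: the mean of 12 was 14.01 and 12.80 on IRP1 arrays 1 and 2 and 14.28 and 13.40 on control arrays 1 and 2. They were higher in replicate 1 of both reactions, and their part in the results below was not tested. In such bulk RNA, fewer cells of a type and less RNA per cell cannot be told apart. Any pair among the 4 duodenum arrays correlated with r from 0.989 to 0.994 over all probe sets, and array medians lay between 5.50 and 5.52. The 3 arrays of the series with low hybridization controls were not duodenum arrays.

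IRP1 enriched a short list of duodenal mRNAs. Of 45037 probe sets, 36 (0.0799%) were called higher in the IRP1 reactions and 11 (0.0244%) lower. The 36 stand for 23 genes, 3 probe sets that list Ftl1 with other genes, and 2 without a gene name. In all 36, both IRP1 arrays lay above both controls, as they did in 16.6% of all probe sets. They include the iron genes Tfrc, Slc11a2 and Epas1, and 20 genes that are on no list of IRE genes used here, led by the chemokine gene Cxcl16, the profilin gene Pfn2, the centrosomal protein gene Cep95, the transcription factor gene Egr2 and the lysophosphatidic acid receptor gene Lpar1. All 36 were at least 2-fold and 20 at least 4-fold higher, with a median log2 change of 2.06 and a range of 1.15 to 3.00. Without adjustment, 909 probe sets (2.02%) had a higher and 929 (2.06%) a lower signal at p under 0.05, and the median change of all probe sets was -0.02.

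**Figure D1:**
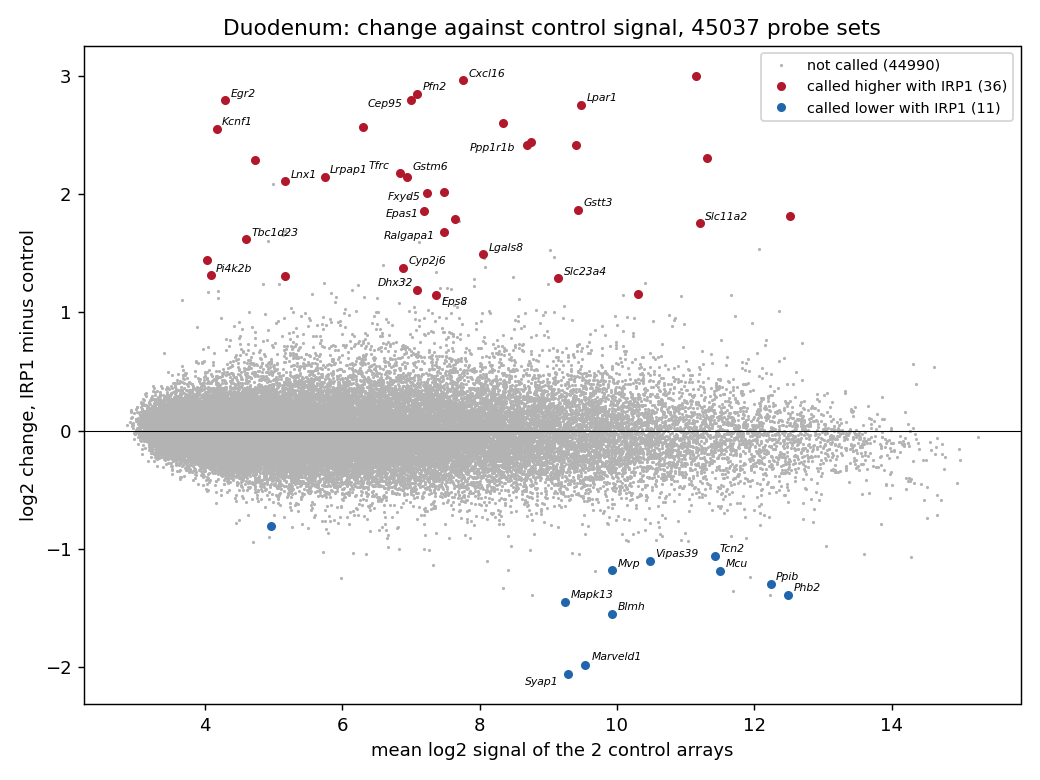
Each point is a probe set, with the mean log2 signal of the 2 duodenum control arrays on the x axis and the log2 change (IRP1 minus control) on the y axis. The 36 called higher (red) spread over control signals from 4.03 to 12.51, and the 11 called lower (blue) sit mostly above 9, with names for the genes described in the text.

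The enrichment was uneven between the 2 IRP1 reactions. Among the 36 probe sets called higher, IRP1 array 1 lay above IRP1 array 2 in 35, with a median difference of 0.49, while control array 1 lay above control array 2 in 18. Over all probe sets, IRP1 array 1 was the higher one in 22597 of 45037. With IRP1 array 1 left out, 5 probe sets were called higher and none lower, and 592 and 639 passed an unadjusted p under 0.05. With control array 1 left out the counts were 5 higher and 1 lower, with control array 2 left out 11 and 1, and with IRP1 array 2 left out 40 and 10. Of the 47 calls, 42 were lost without at least 1 of the 4 arrays. The 5 that held without each of them, and in every other setting that tested them, belong to Lpar1 (2 probe sets), Kcnf1, Ppp1r1b and Lnx1. Those settings number 11, or 10 for Kcnf1, which the filter on dim probe sets left out.

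Among mRNAs with an IRE in the 5′ untranslated region, ferritin light chain gave the largest change. The probe set that lists Ftl1 with the pseudogene Ftl1-ps2 had log2 signals of 14.39 and 13.91 with IRP1, against 11.39 and 10.92 in the controls. Both IRP1 arrays lay well above both controls, with a log2 change of 3.00 ± 0.44 (SE; adjusted p = 0.00748). The 2 other probe sets that list Ftl1 changed by 2.30 and 1.79, and all 3 also match other genes, so the shares cannot be assigned.

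Ferritin heavy chain, the other ferritin subunit, was close to the top of the signal scale. Fth1 had log2 signals of 15.17 and 15.14 with IRP1 and 14.76 and 14.47 in the controls. The groups did not overlap, but the change of 0.54 ± 0.23 was not called, and the second Fth1 probe set gave 0.57. The highest value on any duodenum array was 15.28. Whether the Fth1 differences are compressed near the top of the scale was not tested.

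Ferroportin was split between its probe sets. The brighter Slc40a1 probe set had 13.94 and 13.78 with IRP1 and 13.69 and 13.61 in the controls, a change of 0.21 ± 0.27. The other had 13.68 and 13.52 with IRP1 and 12.18 and 11.95 in the controls, a change of 1.54 ± 0.30 that missed the threshold (adjusted p = 0.0777). In both, the IRP1 arrays lay above the controls.

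HIF-2 alpha (Epas1), a transcription factor that drives iron uptake genes in enterocytes, was called on 1 of 2 probe sets. That probe set had 9.55 and 8.53 with IRP1 and 7.10 and 7.28 in the controls. Its change was 1.85 ± 0.26 (adjusted p = 0.0062), with the IRP1 arrays a full unit apart but both above the controls. The brighter probe set had 13.14 and 12.62 against 12.28 and 11.66 and a change of 0.91 ± 0.34, which was not called.

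Alas2, the erythroid form of the first heme synthesis enzyme, had 7.60 and 6.54 with IRP1 against 5.02 and 4.96 in the controls. The control signal was low, as were the erythroid markers above. Its change of 2.08 ± 0.39 just missed the threshold (adjusted p = 0.0548). Alas2 had the largest change among the gene-assigned probe sets that were not called, ahead of Tomm40, a subunit of the mitochondrial import pore, at 1.98.

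Transferrin receptor 1 (Tfrc), which carries 3′ IREs and imports transferrin-bound iron on the basal side of the epithelium, was called on all 3 of its probe sets. The brightest had 14.41 and 14.25 with IRP1 and 12.69 and 12.34 in the controls, a change of 1.82 ± 0.28 (adjusted p = 0.0113). A second had 9.32 and 8.71 against 6.93 and 6.75, a change of 2.18. The last was dim, with 5.77 and 5.18 against 3.98 and 4.09, a change of 1.44. No IRP1 value overlapped a control value in any of them.

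The divalent metal transporter gene Slc11a2, whose transcripts exist with and without a 3′ IRE, was called on 1 of 4 probe sets. That one had 13.26 and 12.65 with IRP1 and 11.47 and 10.93 in the controls, a change of 1.75 ± 0.31 (adjusted p = 0.0434). The other 3 gave 0.97, 0.74 and 0.37 without a call, and in each the IRP1 arrays lay above the controls. Which isoform each probe set reads is not given in the annotation used here.

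Other reported 3′ IRE genes showed no call. The cell-cycle phosphatase Cdc14a had 8.91 and 9.80 with IRP1 and 9.02 and 9.43 in the controls on its brightest probe set, a change of 0.13 ± 0.29. Cdc42bpa, a kinase downstream of Cdc42, gave 0.05 ± 0.21 with overlapping groups. Hao1, a peroxisomal oxidase of liver, was near the floor of the scale, at 4.49 and 3.94 against 3.75 and 3.71.

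Genes with only a proposed IRE had small differences. App, the amyloid precursor, gave 0.09 ± 0.22 and Prnp, the prion protein, 0.07 ± 0.24. The respiratory complex subunit genes Ndufs1 and Sdhb gave 0.04 ± 0.23 and -0.52 ± 0.29, and Bdh2, a dehydrogenase, gave 0.32 ± 0.24. None was called.

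Counted by the brightest probe set of each gene, 13 of 18193 genes (0.0715%) were called higher and 7 (0.0385%) lower, and the median change was -0.02. On that basis none of 4 measured 5′ IRE genes was called, although all 4 had both IRP1 arrays above both controls, as 3068 genes (16.9%) did. Their median change was 0.72. Of 5 measured 3′ IRE genes 1 was called (Tfrc), 3 had non-overlapping groups with IRP1 higher, and the median was 0.48. The 5 genes with a proposed IRE had a median of 0.07.

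**Figure D2:**
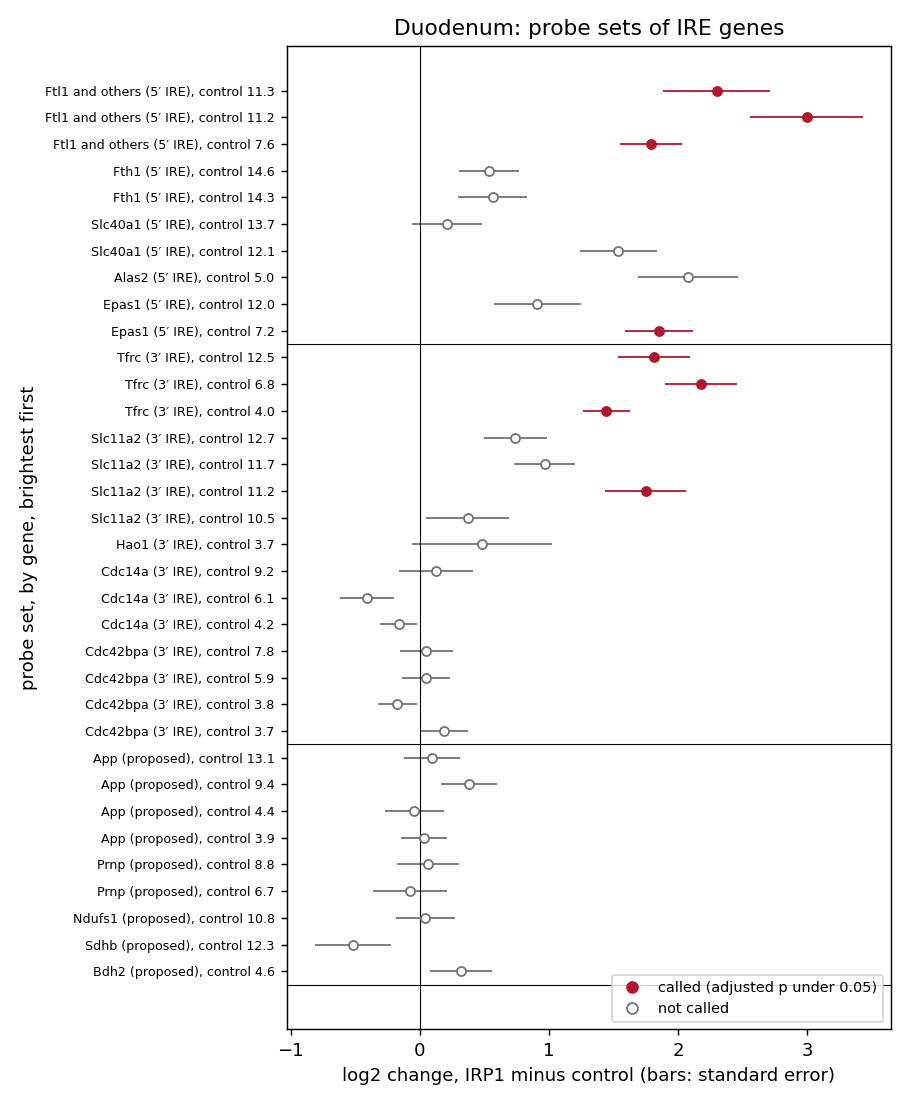
Log2 change (IRP1 minus control) of every duodenum probe set of the IRE genes, with bars for the standard error and the mean control log2 signal beside each gene. Filled points were called: those listing Ftl1, 1 of 2 for Epas1, 3 of 3 for Tfrc and 1 of 4 for Slc11a2.

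Other genes of iron absorption were not called. Of 18 measured genes for intestinal iron uptake and handling, none was called by its brightest probe set, 9 had a positive change, and the median was 0.00. Slc11a2, called on another probe set, is among the 18. Cybrd1, the ferric reductase of the brush border, had 12.87 and 12.88 with IRP1 and 13.23 and 13.10 in the controls. Hephaestin (Heph), the ferroxidase that works with ferroportin, had 11.34 and 11.52 against 11.35 and 11.20. Their changes were -0.29 ± 0.54 and 0.16 ± 0.22. The Cybrd1 error is shared over all tissues, while its standard deviations in duodenum were 0.008 (IRP1) and 0.09 (control). The difference was -0.16 for Slc46a1, a folate and heme carrier, and 0.08 and -0.30 for the heme oxygenase genes Hmox1 and Hmox2. It was 0.05 and -0.21 for the iron chaperone genes Pcbp1 and Pcbp2, and 0.02 for Ncoa4, the ferritin autophagy receptor. None of these differs from 0 by more than 0.30. Among the other carriers, the metal transporters Slc39a8 and Slc39a14 gave -0.01 and -0.08, Flvcr1 gave -0.18, and the mitochondrial iron importers Slc25a37 and Slc25a28 gave 0.35 and -0.34. The reductases Steap3 and Steap4 gave -0.41 and 0.23.

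Iron sensing and its regulators gave no call among 16 measured genes by the brightest probe set, with a median of -0.02. Epas1, called on another probe set, is among them. IRP1's own mRNA (Aco1) gave -0.11 ± 0.27 and that of its relative IRP2 (Ireb2) 0.06 ± 0.26. The IRP2 ubiquitin ligase subunit Fbxl5 gave 0.32. In the hepcidin pathway, Hamp (0.00), Hjv (0.26), Hfe (0.08), Tfr2 (-0.44), Bmp6 (0.09) and Tmprss6 (-0.09) all stayed within 0.5 of 0, and Hamp's signal lay at the floor, between 3.95 and 4.05. Of the oxygen sensing genes, Hif1a gave 0.20, Arnt -0.29 and Vhl -0.09, and the prolyl hydroxylases Egln1, Egln2 and Egln3 gave -0.19, -0.30 and -0.21. Hif1a, the close relative of Epas1, overlapped between groups, at 9.78 and 10.12 against 9.23 and 10.28.

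Beyond the iron genes, Cxcl16 had the largest change of a gene with a probe set of its own. It encodes a membrane-bound chemokine that can be shed and attracts cells carrying CXCR6. Its log2 signals were 10.98 and 10.47 with IRP1 and 7.97 and 7.55 in the controls, a change of 2.96 ± 0.44 (adjusted p = 0.00818), or 7.78-fold. The second Cxcl16 probe set changed by 2.44, and the groups lay far apart in both.

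Pfn2, a profilin that binds actin monomers, was called on 3 of 3 probe sets. The largest change was 2.84 ± 0.34 (adjusted p = 0.00212), from 10.16 and 9.70 with IRP1 against 7.03 and 7.15 in the controls. The others changed by 2.57 and 2.02. Among 16 measured genes for actin monomer binding and profilin partners, Pfn2 was the single call. The share of all genes called higher by the brightest probe set was 0.0715%. Pfn3 followed with 0.77 ± 0.18, which was not called, at 5.14 and 5.04 against 4.27 and 4.37, and the list's median was -0.06.

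Lpar1 encodes a G protein-coupled receptor for lysophosphatidic acid. Its probe sets had 12.41 and 12.04 with IRP1 against 9.22 and 9.73 in the controls, and 11.91 and 11.73 against 9.31 and 9.51. The changes were 2.75 ± 0.30 and 2.41 ± 0.24, with adjusted p = 0.000994 and 0.00052. Another, dimmer probe set gave 1.66 and was not called.

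Egr2, a zinc-finger transcription factor of the immediate early class, was dim in the controls. Its 2 probe sets had 7.27 and 6.92 with IRP1 against 4.14 and 4.46, and 7.41 and 6.64 against 4.75 and 4.73. Their changes were 2.79 and 2.28, both called. Both IRP1 arrays lay above both controls in each.

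Kcnf1, a modifier subunit of voltage-gated potassium channels, had 6.81 and 6.64 with IRP1 and 4.02 and 4.33 in the controls, a change of 2.55 ± 0.27 (adjusted p = 0.000965). Ppp1r1b, also known as DARPP-32, an inhibitor of protein phosphatase 1, had 11.56 and 10.66 with IRP1 and 8.78 and 8.61 in the controls, a change of 2.41 ± 0.27 (adjusted p = 0.00129). Both were clear of overlap. The second Kcnf1 probe set was dim, with 5.10 and 5.11 against 5.41 and 4.98, a change of -0.09.

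Cep95 had 10.00 and 9.59 with IRP1 and 7.01 and 6.99 in the controls, a change of 2.80 ± 0.49, while its 2 other probe sets were dim and gave 0.34 and -0.01. Lrpap1, the chaperone of LDL receptor family proteins, was called on 1 of 4 probe sets, at 8.27 and 7.51 against 5.92 and 5.57, a change of 2.14 ± 0.37. Its other probe sets gave 1.20, 0.10 and -0.24 without a call, so the reading depends on which one is taken. Fxyd5, a regulator of the sodium pump, had 9.72 and 8.78 against 7.20 and 7.29, a change of 2.01 ± 0.35. In the called probe sets of these 3 genes, both IRP1 arrays lay above both controls.

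Genes for detoxifying enzymes were also on the list. Gstm6, a mu-class glutathione transferase, had 9.39 and 8.77 with IRP1 and 6.60 and 7.28 in the controls, a change of 2.14 ± 0.27 (adjusted p = 0.00309). Gstt3, of the theta class, had 11.79 and 10.81 against 9.45 and 9.42, a change of 1.87 ± 0.32 (adjusted p = 0.0322). They were the only calls among 20 measured glutathione transferase genes, whose median change was 0.02. By the brightest probe set, 0.0715% of all genes were called higher. The next largest changes were 0.37 for Gstt1 and -0.36 for Gsta4, neither called. Mu-class genes are closely alike in sequence, so the Gstm6 signal may hold that of a relative. The cytochrome P450 gene Cyp2j6 had 8.37 and 8.17 against 6.73 and 7.05, a change of 1.38 ± 0.18, with 1.02 on its other probe set.

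Several transport, lipid and cytoskeletal genes rose by less than 4-fold. Slc23a4, a nucleobase transporter of rodent intestine, had 10.83 and 10.03 with IRP1 and 8.98 and 9.31 in the controls, a change of 1.29 ± 0.21 (adjusted p = 0.0178). Eps8, which caps and bundles actin in microvilli, had 8.78 and 8.25 against 7.63 and 7.11. Its change was 1.15 on that probe set, and 0.89 and 0.52 on 2 brighter ones that were not called. Pi4k2b, a kinase for phosphatidylinositol, rose by 1.31 on a dim probe set (5.12 and 5.68 against 3.85 and 4.33), but its bright probe set gave -0.20. It was the single probe set among the 36 with IRP1 array 2 above IRP1 array 1.

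Lgals8, a galectin, had 9.57 and 9.52 with IRP1 and 8.15 and 7.96 in the controls, a change of 1.49, with 0.95 on its brighter probe set. Tbc1d23, an adaptor in endosome-to-Golgi traffic, had 6.54 and 5.90 against 4.60 and 4.60, a change of 1.62. Ralgapa1, the catalytic subunit of a GTPase-activating complex for Ral, was called on 2 of 8 probe sets, with changes of 1.68 and 1.31, and another gave 1.60 without a call. The 5 other Ralgapa1 probe sets were dim and stayed between -0.10 and 0.20.

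**Figure D3:**
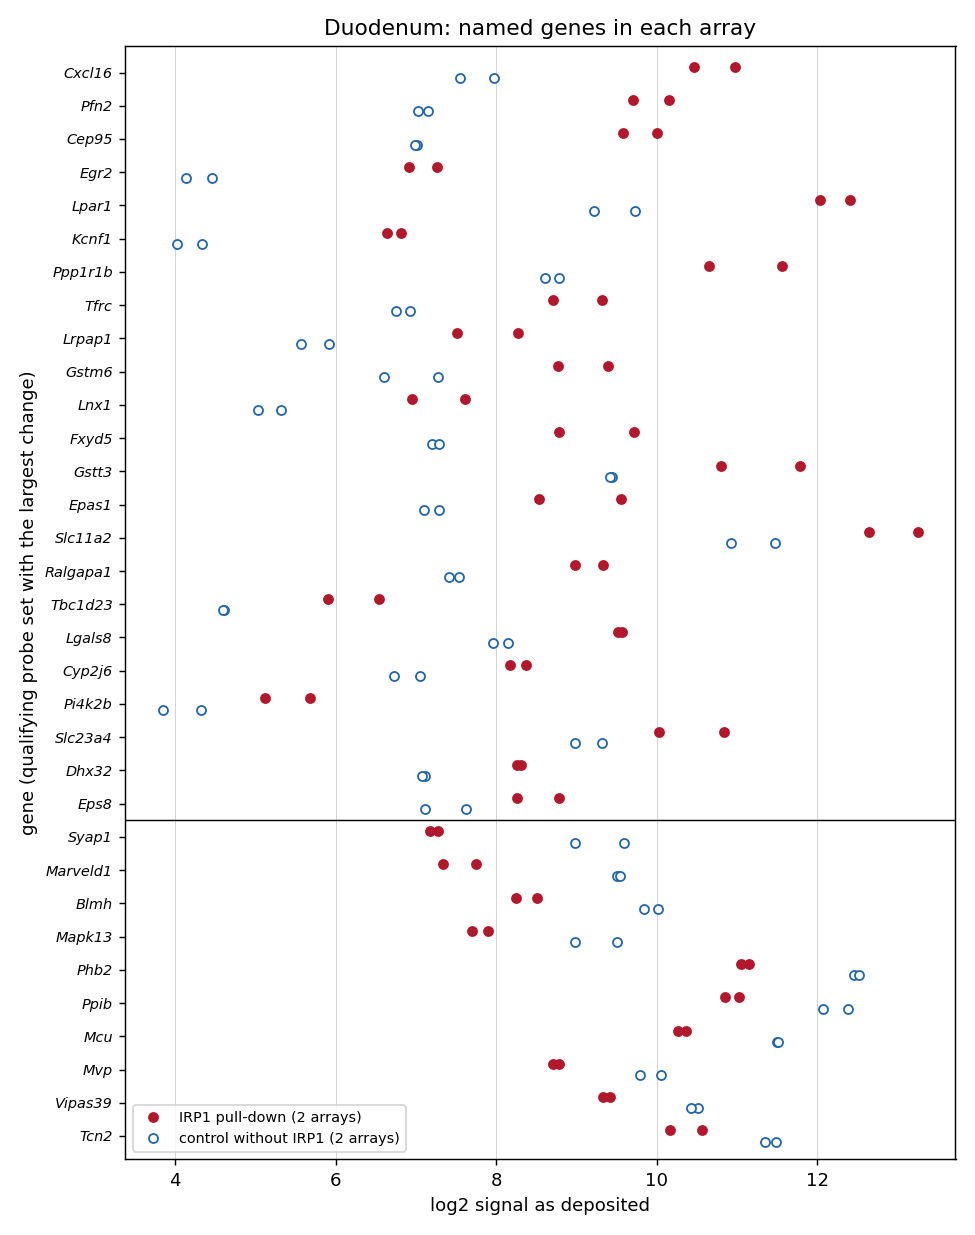
Log2 signal of the 33 named genes on each duodenum array, IRP1 (filled) above control (open) within each gene. The 23 genes in the upper block have both IRP1 arrays above both controls, and the 10 in the lower block have both below.

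Dhx32, a DEAH-box helicase family member, was the one called gene with an IRE-like hairpin in the sequence that could be searched. Promoter windows from RefSeq (build GRCm38.p6), running 250 bases before to 50 after each gene start, were searched on the transcribed strand for a C, 5 bases, the loop CAGTGN and 5 bases able to pair with the first 5, G-T pairs allowed. The hairpin is shown because it was the only match among called genes, with capitals for the matching 17 bases.
Dhx32, chr7:133782769-133782798, minus strand: gtttccCTGGCCCAGTGAGGCCAaggacaa
The capitals run from -7 to 10 relative to the annotated start, so the hairpin is not whole in a transcript that begins there. Matches were found in 26 of 32851 windows (0.0791%), and in 24 (0.0731%) on the other strand. Of 34 called genes, 27 had a window. A match is a description of letters and not a binding site.

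Dhx32 had 8.31 and 8.25 with IRP1 and 7.11 and 7.08 in the controls on its called probe set. The change was 1.19 ± 0.22 (adjusted p = 0.0451). The call rests on a probe set whose name ends in x_at, a kind whose probes may match other transcripts. This call did not survive the omission of any single duodenum array (adjusted p from 0.196 to 0.556) or quantile normalization (adjusted p = 0.174). The other Dhx32 probe set gave 0.28 ± 0.27, and neither shows overlap. Of 16 measured genes with a match, Dhx32 was the only one with a called probe set, against 34 of all 18193 genes. The next, Trp53inp2, gave 1.25 without a call (adjusted p = 0.163), and its match lies upstream of the start, from -239 to -223. The loop letters CAGTG alone occurred in 34.7% of all windows and in 21.4% of the 42 windows of called genes. These shares cannot tell whether an mRNA holds an IRE, because 250 bases of each window lie before the annotated start. The matching genes did not include the 5′ IRE genes Ftl1, Fth1, Slc40a1, Alas2 and Epas1.

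The 11 probe sets called lower had a median change of -1.30. In each, both IRP1 arrays lay below both controls, as they did in 21.6% of all probe sets. Of the 11, 7 are of the kind whose name ends in x_at, whose probes may match other transcripts, a share of 63.6% against 5.42% of all probe sets. Syap1 had 7.27 and 7.17 with IRP1 and 8.98 and 9.59 in the controls, a change of -2.06 ± 0.26 (adjusted p = 0.00309). A brighter Syap1 probe set had 11.74 and 11.79 against 11.72 and 11.82, with overlap. Marveld1, a membrane protein gene, gave -1.98 on 1 of 4 probe sets, with the others between -0.40 and 0.07.

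Probe sets of other lowered genes differed in the same way. Blmh, bleomycin hydrolase, gave -1.55 on the called probe set and 0.12 on the other. Phb2, a prohibitin of the inner mitochondrial membrane, had 11.16 and 11.05 with IRP1 and 12.46 and 12.52 in the controls, a change of -1.39 ± 0.19. Its 3 other probe sets, a bright one at 11.30 and 11.14 against 11.47 and 11.25 among them, lay between -0.13 and 0.01. Ppib, cyclophilin B of the endoplasmic reticulum, gave -1.30 and -0.16. Vipas39, a partner of a vesicle-sorting protein, gave -1.10, with -0.17 and -0.24 on its others.

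The other genes called lower were Mapk13, Mvp, Tcn2, Mcu and Pnpla2. Mapk13, the delta form of p38 kinase, has 1 probe set and had 7.70 and 7.90 with IRP1 against 9.51 and 8.98 in the controls, a change of -1.45 ± 0.24. Mvp, the major vault protein, gave -1.18 and -0.70 on its 2 probe sets, both with IRP1 below control. Tcn2, which carries vitamin B12, gave -1.06 on the called probe set and -0.74, -0.51, -0.37 and 0.01 on the others. Mcu, the mitochondrial calcium uniporter, had 10.27 and 10.36 against 11.49 and 11.51, a change of -1.19 ± 0.16 (adjusted p = 0.00411), and its other probe set was dim. Pnpla2, a triglyceride lipase, fell by less than 2-fold, at -0.81.

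Several other gene groups gave no call by the brightest probe set. By that measure, 0.0715% of all genes were called higher and 0.0385% lower. None of 24 brush border genes, 18 lipid absorption genes, 17 TCA cycle genes, 12 hypoxia targets, 7 heme synthesis genes without an IRE, 48 ribosomal protein genes or 74 respiratory chain genes was called. Apoc3, an apolipoprotein, had the largest change of the lipid genes, at 10.75 and 10.93 with IRP1 against 11.98 and 12.48 in the controls. Its change of -1.39 ± 0.30 missed the threshold (adjusted p = 0.163). The hypoxia-induced gene Ddit4 showed a like size with a wide error, -1.39 ± 0.67. The 13 genes of iron-sulfur cluster assembly had a median of 0.19, with 12 positive and 6 with IRP1 above control in both arrays (46.2%, against 16.9% of all genes), but no call. The largest of them was 0.51 ± 0.21 for Ciao1, a cytosolic assembly factor.

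Cell type markers gave no call in any of 16 lists. Of all genes, by the brightest probe set, 0.0715% were called higher and 0.0385% lower. The marker lists of enterocytes and goblet cells had medians of -0.12 and -0.24, and those of Paneth, enteroendocrine and tuft cells -0.04, 0.10 and 0.13. Acinar markers had a median of -0.47. In 1 of 12 both IRP1 arrays lay above both controls, and in none did both lie below. Among all genes these shares were 16.9% and 21.9%. The largest negative difference among the markers was -1.05 for Ctrb1, an acinar protease, at 13.65 and 11.43 against 14.01 and 13.17, with overlap. The largest positive ones were 0.96 for Neurod1, an enteroendocrine transcription factor, at 7.04 and 6.32 against 5.63 and 5.81, and 0.94 for Gzmb, a granzyme of intraepithelial lymphocytes, at 9.73 and 9.17 against 8.54 and 8.48. Neither of these 2 was called (adjusted p = 0.148 and 0.327). Among reference genes, the largest change was 0.32 for B2m.

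**Figure D4:**
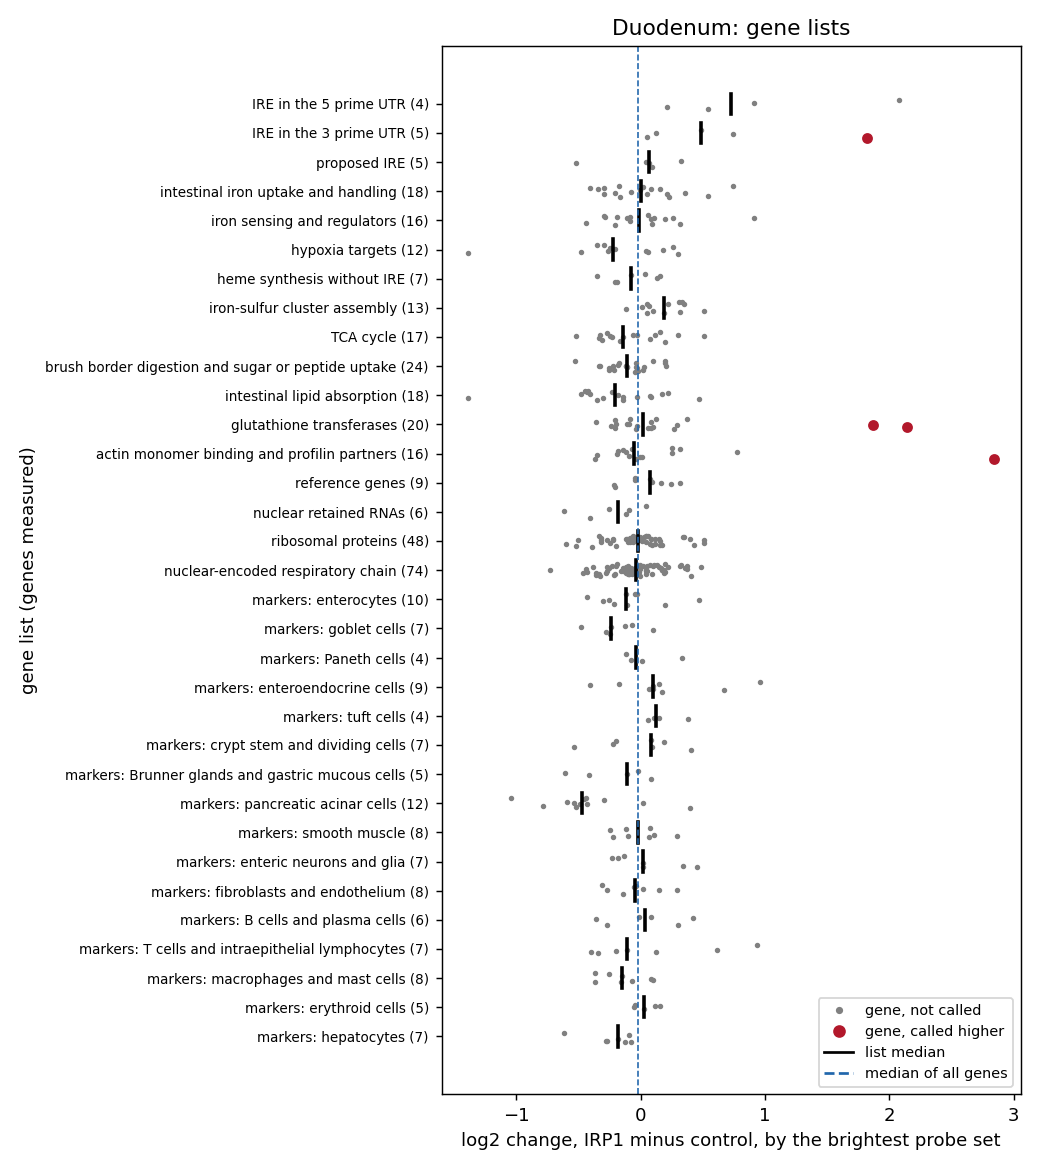
Log2 change (IRP1 minus control) in duodenum of each measured member of the gene lists, each gene by its brightest probe set, with the list median as a black bar. Red points are the called genes Tfrc, Gstm6, Gstt3 and Pfn2, and the dashed line is the median of all genes, -0.02.

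Many of the duodenal calls were shared with other tissues. Of the 36, bone marrow called 23 (63.9%, or 40.4% of its own 57), spleen 20 (55.6%, or 64.5% of its 31), brain 17 (47.2%, or 43.6% of its 39) and liver 16 (44.4%, or 39.0% of its 41). Those tissues called 0.127%, 0.0688%, 0.0866% and 0.091% of all probe sets higher. The 6 probe sets called in every tissue belong to Cep95, Lpar1, Lrpap1 and Tfrc. Of the 11 lower ones, 8 were called in no other tissue, Tcn2 also in liver, and Blmh and Marveld1 in 2 others. The sign was still negative for 10 of the 11 in liver, 9 in spleen, 7 in bone marrow and 11 in brain. Their median changes there were -0.68, -0.58, -0.57 and -0.56. Over all probe sets, liver called 0.0933% lower, spleen 0.0333%, bone marrow 0.00444% and brain 0.0377%.

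Of the 36, 7 were called in duodenum and in no other tissue. They belong to Slc23a4, Cyp2j6, Gstt3, Lgals8, Pi4k2b and Eps8, with 1 unnamed. A call in 1 tissue does not show a difference, so the duodenum effect was tested against the mean effect of the other 4 tissues. No probe set was called in either direction, while 716 (1.59%) were higher and 890 (1.98%) lower at an unadjusted p under 0.05. For Slc23a4 the difference was 1.23 ± 0.23 (adjusted p = 0.456) and for Pi4k2b 1.30 ± 0.24 (adjusted p = 0.456). Slc23a4 control signals were 9.15 on average in duodenum and 5.07 or less elsewhere, near the lower part of the scale. Those of Pi4k2b were 4.09 in duodenum and 3.57 or less elsewhere, near the floor.

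Against liver and spleen alone, which share the iron-poor diet, 1 probe set (0.00222%) had a larger effect in duodenum and none a smaller one. At an unadjusted p under 0.05 the counts were 1419 (3.15%) and 1178 (2.62%). The called probe set reads Lnx1, a ubiquitin ligase that targets Numb. Lnx1 had 7.62 and 6.95 with IRP1 and 5.32 and 5.03 in the controls, a change of 2.11 ± 0.20 (adjusted p = 0.00052). In liver it had 4.04 and 3.87 against 3.93 and 3.92, and in spleen 3.71 and 3.69 against 3.84 and 3.74, near the floor. The difference was 2.14 (adjusted p = 0.00859). It was not called without IRP1 array 1 (adjusted p = 0.0896) or control array 2 (adjusted p = 0.213). A brighter Lnx1 probe set gave 0.73 in duodenum and was not called, at 10.40 and 9.95 against 9.56 and 9.32.

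Lnx1 and Ppp1r1b were called in duodenum and brain, and Kcnf1 in those 2 and in bone marrow. In brain the changes were 2.20, 3.21 and 3.06, and the liver values were 0.03, 0.21 and 0.13. Spleen values were -0.09, 0.28 and 1.05, the last with both IRP1 arrays above both controls but without a call. The liver control signals of Lnx1 and Kcnf1 averaged 3.93 and 3.83, near the floor. Control signals of Ppp1r1b were 8.70 on average in duodenum and 8.46 in brain, and between 6.1 and 6.8 in the others. Pfn2 ran differently: on the same probe set its brain control signal averaged 13.26 and its difference there was 0.27, without a call. The 2 other Pfn2 probe sets gave 1.06 and 0.21 in brain, also without a call.

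**Figure D5:**
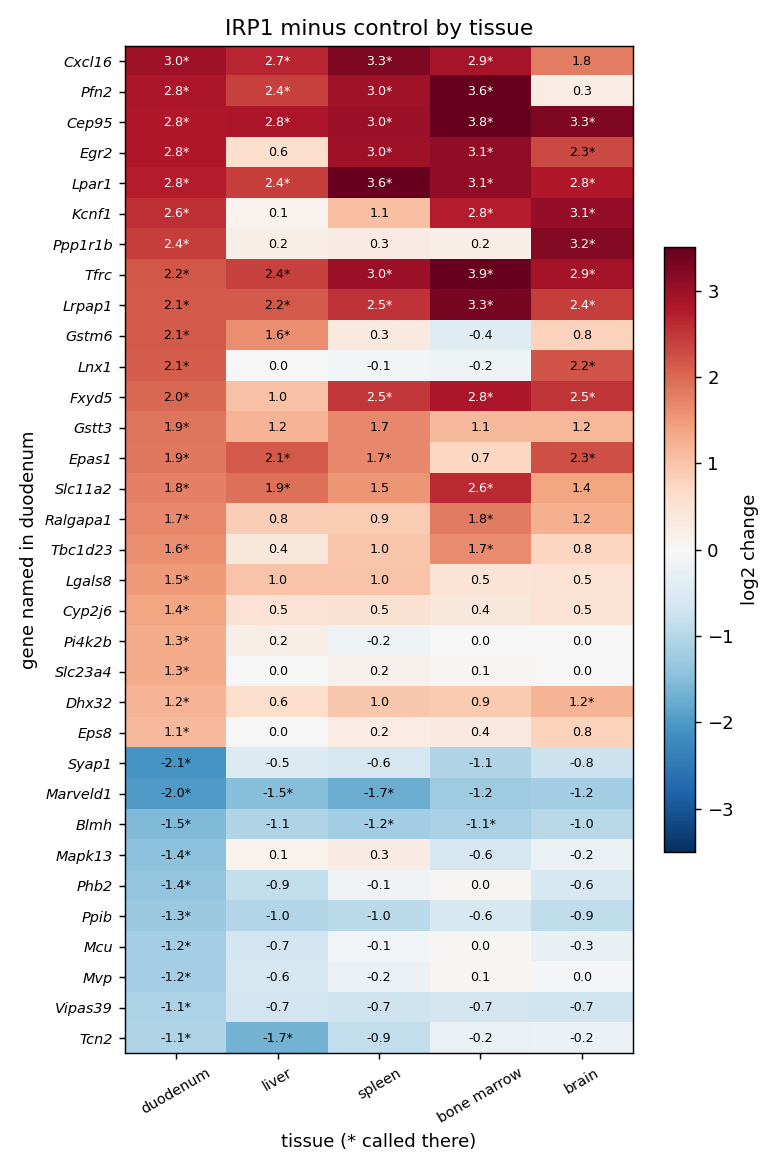
Log2 change (IRP1 minus control) of the 33 genes named in duodenum, each by the same probe set in all 5 tissues, with an asterisk where it was called. Cep95, Lpar1, Tfrc and Lrpap1 carry an asterisk in every column, while Slc23a4 and Pi4k2b are near 0 outside duodenum, where their signals were low.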

How the data were processed

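RNA from IRP1 and control reactions was amplified in 2 rounds from about 120 ng recovered out of 50 µg total RNA and hybridised to Affymetrix Mouse430_2 arrays, per the labels' protocols. The deposited log2 signals were made by the authors with RMA, or with MAS5 in GCOS and quantile normalization, per the series design text. Which of these made the table is not stated. The values were used as deposited, without filter or pseudocount. The 64 AFFX controls were left out. Of 45037 probe sets, the platform annotation gave 34945 a single gene symbol (18193 genes), 932 several and 9160 none.

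One model of 10 groups of 2 was fitted with limma 3.58.1 (lmFit, eBayes) in R 4.3.3, with 10 residual degrees of freedom and a prior of 6.14, two-sided. The number of arrays limits the precision. The fit was tested on simulated data. Figures used matplotlib 3.10.9.

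Named were the genes of called probe sets with exactly 1 symbol, at least 2-fold changed and without overlap between groups (up to 30 higher and 10 lower), the members of the IRE and iron lists, and the up to 4 most changed genes in each remaining list. Pnpla2, under 2-fold, Tomm40 and Trp53inp2 were named after their values were seen. The members and lists were chosen with earlier results of these data known. Replicates with the same number deviated together in duodenum (r = 0.27), spleen and brain but not in liver or bone marrow, so the numbers were not taken as pairs. IRE sequences outside the promoter windows were not used here.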

Additional observations from a re-analysis of the deposited data

Results flagged for a closer look

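Lnx1 differed between tissues. Its duodenum effect exceeded the mean effect of liver and spleen by 2.14 in the limma fit (adjusted p = 0.00859), on the probe set with little signal outside duodenum and brain. That call was lost without IRP1 replicate 1 (adjusted p = 0.0896), without control replicate 2 (adjusted p = 0.213), without the 3 arrays with low hybridization controls (adjusted p = 0.13) and in a fit of the 12 iron-poor arrays (adjusted p = 0.0535), and the filter on dim probe sets left the probe set out. Over these and the other settings the adjusted p ran from 0.00104 to 0.213. Lnx1 also moved in opposite directions without a test of that difference. Both IRP1 arrays lay above both controls in duodenum, and both lay below in spleen (3.71 and 3.69 with IRP1, 3.84 and 3.74 in the controls, a change of -0.091) and in bone marrow (3.59 and 3.47 with IRP1, 3.82 and 3.61 in the controls, a change of -0.186). The spleen and bone marrow signals were near the floor of the scale, and neither change was called there. Groups of 2 arrays are too small for a check of single outlying arrays.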

How the results depend on the processing

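Against 36 probe sets higher and 11 lower, a floor at a log2 signal of 5 gave 56 and 47 (13 and 10 shared), array weights 77 and 33, the 12 iron-poor arrays 23 higher, and the 4 duodenum arrays alone 31 and 7. With the floor, 24 of the 47 calls were lost. Leaving out each duodenum array gave 5 to 40 higher and 0 to 10 lower. Quantile normalization, median centring, a filter on dim probe sets, a trended prior, the array standard deviation as covariate and omission of 3 arrays with low hybridization controls kept both counts within 1.5 times. The fit with a replicate block gave 34 and 9, of which 31 and 7 were shared. The call of Dhx32 was among those lost (adjusted p = 0.124). For the difference from the other 4 tissues (0 and 0), the higher count became 1 with quantile normalization, array weights, the trended prior and the covariate, and 57 with the floor. The lower count became 2 with quantile normalization and the covariate and 59 with the floor. Arrays left out gave 0 to 2 higher. For the difference from liver and spleen (1 and 0), the floor gave 67 and 76. The filter, the 12 iron-poor arrays and omission of the 3 arrays gave 0 higher, and arrays left out gave 0 to 3. The cause was not tested.

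The sign of 17 uncalled genes near 0 turned with an array left out. The lowest and highest changes were -0.32 and 0.57 for Cdc14a, -0.047 and 0.15 for Cdc42bpa, -0.035 and 0.22 for App, -0.068 and 0.16 for Ndufs1, -0.45 and 0.091 for Flvcr1, -0.011 and 0.11 for Pcbp1, -0.15 and 0.18 for Ncoa4, and -0.24 and 0.076 for Slc39a14. They were -0.26 and 0.71 for Steap4, -0.27 and 0.055 for Aco1, -0.30 and 0.42 for Ireb2, -0.15 and 0.31 for Hfe, -0.052 and 0.24 for Bmp6, -0.34 and 0.15 for Tmprss6, -0.33 and 0.72 for Hif1a, and -0.54 and 0.12 for Egln3. For Slc39a8 they were -0.081 and 0.061, and it also turned with quantile normalization (0.0028) and median centring (0.0034).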
